A study of Mus musculus with 2 samples.

Results

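A set of 164 mouse genes each carried 3 or more separate Sap130 peaks at annotated promoters in embryonic brain. They were chosen by counting, in the authors' peak list, how many peaks were labelled with the same gene symbol, so the peak count itself is a description here and was not tested. The 164 genes were 1.53% of the 10751 gene symbols with at least 1 labelled peak, and their 510 peaks were part of 12656 labelled peaks and 16231 peaks in all. Of the remaining symbols, 1559 had 2 labelled peaks and 9028 had 1. Counted by RefSeq gene instead of symbol, 164 of 20953 protein-coding genes (0.783%) had 3 or more, and 10313 (49.2%) had at least 1.

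Chromatin immunoprecipitation sequencing (ChIP-seq) recovers the DNA bound by a protein with an antibody, here 2 µg of rabbit anti-Sap130, and compares it with input DNA that skipped the antibody step. The series has 1 ChIP library and 1 input library, both from brain of B6 wildtype mouse embryos at stage E13.5. The labels do not say how many embryos were pooled. Brain mixes progenitors, neurons and other cells, so a peak in few cells and a weak peak in many cannot be told apart. No peak could be checked in another sample, and the depth is unknown.

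Sap130 belongs to the Sin3 corepressor, a complex that brings histone deacetylases (HDACs) to DNA and removes acetyl groups from histones, mostly at promoters. Many vertebrate promoters are CpG islands, stretches rich in the dinucleotide CG, and many genes of the nervous system have several promoters that start different transcripts. A gene can therefore gather several promoter peaks in different ways: as pieces around a single start, or as separate peaks at alternative starts.

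The 10 promoter windows below show both arrangements. Each is 300 bases of reference sequence (RefSeq, GRCm38.p6), from 250 bases before to 50 bases after a labelled transcription start, written 5' to 3' on the gene's own strand with every CG dinucleotide in capitals. Tgif1, a homeobox corepressor, was the gene with the most labelled peaks, and its 4 labelled starts are shown in order along the gene. They lie on the minus strand at chr17:70853483-70853782, chr17:70851685-70851984, chr17:70851161-70851460 and chr17:70849741-70850040. Sin3a, the scaffold of the complex that Sap130 belongs to, had labelled starts on the plus strand at chr9:57071790-57072089 and chr9:57076126-57076425. Satb1, an organiser of chromatin loops, is shown because it is a listed neural factor whose starts differed in CG content: on the minus strand, chr17:51833241-51833540, chr17:51832598-51832897 and chr17:51812005-51812304. Dlx1, a homeobox factor of the ventral forebrain, had all its peaks around a single start, at chr2:71529195-71529494 on the plus strand.
Tgif1 most upstream start: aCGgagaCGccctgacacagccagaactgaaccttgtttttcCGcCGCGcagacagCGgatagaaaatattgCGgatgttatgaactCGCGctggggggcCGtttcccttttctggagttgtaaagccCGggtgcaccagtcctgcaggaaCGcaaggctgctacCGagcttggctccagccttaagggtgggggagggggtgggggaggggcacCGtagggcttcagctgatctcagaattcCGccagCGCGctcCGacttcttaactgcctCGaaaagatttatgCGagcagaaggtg
Tgif1 next start: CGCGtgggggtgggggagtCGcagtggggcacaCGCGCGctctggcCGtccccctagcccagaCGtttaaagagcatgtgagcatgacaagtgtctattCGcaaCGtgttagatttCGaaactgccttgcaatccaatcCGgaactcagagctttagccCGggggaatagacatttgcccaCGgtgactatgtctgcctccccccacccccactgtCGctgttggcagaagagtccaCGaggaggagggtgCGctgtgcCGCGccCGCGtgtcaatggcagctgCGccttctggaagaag
Tgif1 inner start: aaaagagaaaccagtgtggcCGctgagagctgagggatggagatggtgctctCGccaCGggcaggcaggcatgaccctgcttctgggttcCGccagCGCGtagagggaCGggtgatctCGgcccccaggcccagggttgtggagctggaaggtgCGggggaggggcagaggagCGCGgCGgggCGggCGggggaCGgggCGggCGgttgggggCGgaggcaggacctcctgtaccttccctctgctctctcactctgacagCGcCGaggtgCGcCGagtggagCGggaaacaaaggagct
Tgif1 most downstream start: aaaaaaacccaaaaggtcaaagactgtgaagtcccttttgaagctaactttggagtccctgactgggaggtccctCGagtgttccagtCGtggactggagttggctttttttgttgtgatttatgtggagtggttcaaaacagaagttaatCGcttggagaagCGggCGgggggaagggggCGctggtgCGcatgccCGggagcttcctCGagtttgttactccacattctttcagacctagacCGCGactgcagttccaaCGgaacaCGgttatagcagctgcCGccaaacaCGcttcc
Sin3a upstream start: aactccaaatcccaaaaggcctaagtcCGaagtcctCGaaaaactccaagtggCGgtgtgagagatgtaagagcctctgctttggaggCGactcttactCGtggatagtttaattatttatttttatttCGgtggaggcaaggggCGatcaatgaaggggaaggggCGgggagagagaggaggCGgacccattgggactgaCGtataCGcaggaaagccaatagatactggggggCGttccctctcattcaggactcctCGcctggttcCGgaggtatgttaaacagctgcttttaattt
Sin3a downstream start: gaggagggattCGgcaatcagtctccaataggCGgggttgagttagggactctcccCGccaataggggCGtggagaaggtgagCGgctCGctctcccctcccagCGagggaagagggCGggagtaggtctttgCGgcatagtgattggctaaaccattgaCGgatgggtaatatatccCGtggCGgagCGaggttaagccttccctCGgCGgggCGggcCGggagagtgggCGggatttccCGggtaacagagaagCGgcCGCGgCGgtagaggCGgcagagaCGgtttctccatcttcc
Satb1 upstream start: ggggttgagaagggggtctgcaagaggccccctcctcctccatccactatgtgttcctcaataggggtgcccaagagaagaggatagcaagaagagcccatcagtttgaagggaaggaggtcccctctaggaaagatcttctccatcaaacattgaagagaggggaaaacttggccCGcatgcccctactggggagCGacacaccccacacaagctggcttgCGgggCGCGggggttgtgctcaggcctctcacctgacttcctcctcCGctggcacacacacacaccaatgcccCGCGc
Satb1 middle start: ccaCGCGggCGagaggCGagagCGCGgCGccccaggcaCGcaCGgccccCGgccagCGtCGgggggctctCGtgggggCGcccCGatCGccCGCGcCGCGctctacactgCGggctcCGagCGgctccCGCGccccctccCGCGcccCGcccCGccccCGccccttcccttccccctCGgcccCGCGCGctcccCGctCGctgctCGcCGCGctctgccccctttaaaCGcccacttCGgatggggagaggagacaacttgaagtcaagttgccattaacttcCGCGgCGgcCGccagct
Satb1 downstream start: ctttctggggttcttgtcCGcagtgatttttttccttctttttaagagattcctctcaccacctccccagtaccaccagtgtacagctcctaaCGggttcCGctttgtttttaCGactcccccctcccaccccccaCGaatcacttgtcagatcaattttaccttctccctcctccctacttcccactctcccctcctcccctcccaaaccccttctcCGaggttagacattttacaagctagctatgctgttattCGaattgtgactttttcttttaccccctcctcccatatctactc
Dlx1 start: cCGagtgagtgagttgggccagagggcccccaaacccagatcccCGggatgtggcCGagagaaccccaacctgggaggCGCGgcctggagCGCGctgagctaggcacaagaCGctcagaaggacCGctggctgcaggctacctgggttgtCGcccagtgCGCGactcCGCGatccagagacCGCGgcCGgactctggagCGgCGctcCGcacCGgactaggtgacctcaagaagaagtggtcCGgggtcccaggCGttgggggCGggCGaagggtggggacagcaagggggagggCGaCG

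The windows held unequal numbers of CG. Along Tgif1 they held 20, 22, 23 and 15 CG, and in Sin3a 14 and 25. In Satb1 the middle window held 45 CG with a GC content of 76.7%, while the upstream window held 8 and the downstream window 7. The Dlx1 window held 27.

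Among the 164 genes, 147 had 3 labelled peaks, 16 had 4 and 1 (Tgif1) had 5. All peaks of a gene lay on a single chromosome in all 164. By biotype 162 were protein-coding and 2 were long non-coding RNA genes, Pantr1 and Gm10649. The protein-coding count of 164 above adds Btbd8 and Bcor, whose peaks were split over an old and a new symbol. The label was checked against the coordinates: the centre of every labelled peak lay within 999.5 bp of the start of its labelled transcript, so all 510 were promoter peaks in that sense. A gene with more annotated starts has more places where a peak can take its label.

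The genes fell into both arrangements. In 92 genes, called single-start genes here, all labelled starts lay less than 500 bp apart. The other 72 genes (43.9%), called multi-start genes, had labelled starts at least 500 bp apart, against 147 of the 1559 genes with 2 labelled peaks (9.43%). A gene with more labelled peaks has more chances of distant labelled starts, so this contrast is not independent of the rule. The largest span of peaks among the 147 was 151127917 bp, beyond the length of any labelled gene (at most 2241333 bp). Of the 72, 60 had 2 groups of starts, 11 had 3 and 1 had 4.

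In the single-start genes the peaks sat on both sides of the start. In the 90 of them with exactly 3 peaks, the median centre was at -491 bp for the first peak along the gene, 118.25 bp for the middle peak and 713.75 bp for the last, where negative values are upstream. The first peak was centred upstream in all 90 genes and the last in none. The middle peak was centred upstream in 26. Since a label requires a centre within about 1 kb, the labelling itself bounds this spread.

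**Figure D1:**
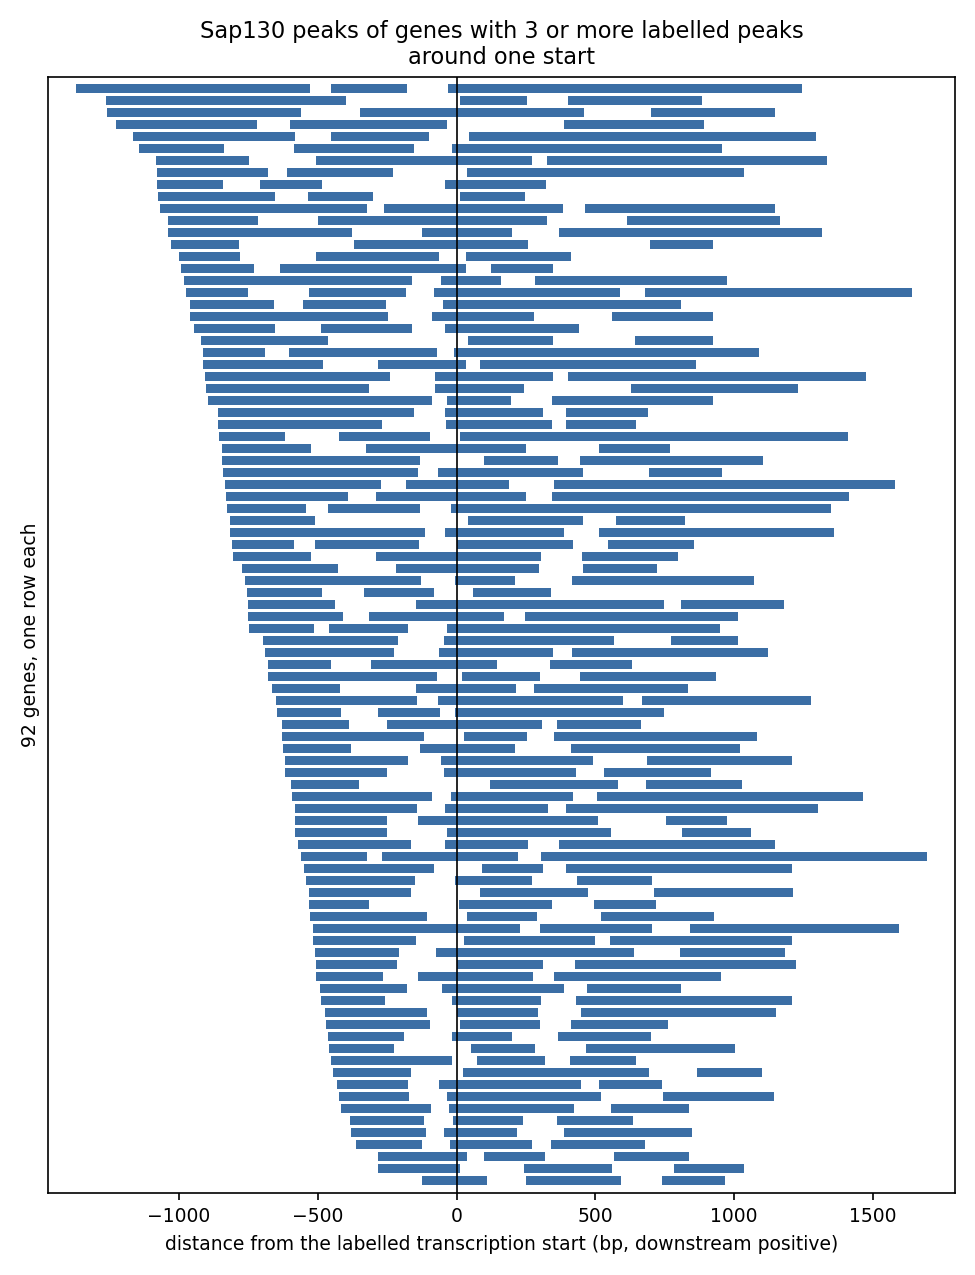
Map of the labelled Sap130 peaks of the 92 single-start genes, 1 gene per row, ordered by the upstream edge of the first peak. The x axis is the distance in bp from the labelled start (for genes with close starts, that of the first peak), bars are peaks and the vertical line is the start. Most rows show 1 bar upstream, 1 near or just after the start and 1 further downstream, with short gaps between them.

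The gaps gathered in 2 places, just upstream of the start and further down inside the gene. The first gap along the gene had a median centre of -152.75 bp and a median length of 140 bp (range 53 to 550), and its centre was upstream of the start in 84 of 90 genes. The second gap had a median centre of 365 bp and a median length of 138.5 bp (range 51 to 443), with its centre downstream in 75 of 90. The start itself lay inside a labelled peak in 66 of the 90 genes and in a gap between peaks in 24. The peaks together covered a median of 82.2% of the span from the first edge to the last (range 56.3 to 94.0%).

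Averaged over genes, coverage by labelled peaks dipped just upstream of the start in single-start genes, to 42.4% at -50 bp. At -100 bp it was 43.5%, with 45.1% of 2-peak genes around a single start and 59.6% of 1-peak genes. At -300 bp it was 76.1%, 69.8% and 38.7% in the same order of sets. At 100 bp downstream the 3 sets lay close together, at 95.7%, 92.1% and 92.7%. At 400 bp the single-start genes were at 63.0%, against 84.1% of 2-peak and 80.3% of 1-peak genes, and at 600 bp at 77.2%, against 72.5% and 52.6%. These shares describe how the sets were cut from the list, since the number of pieces chose them.

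**Figure D2:**
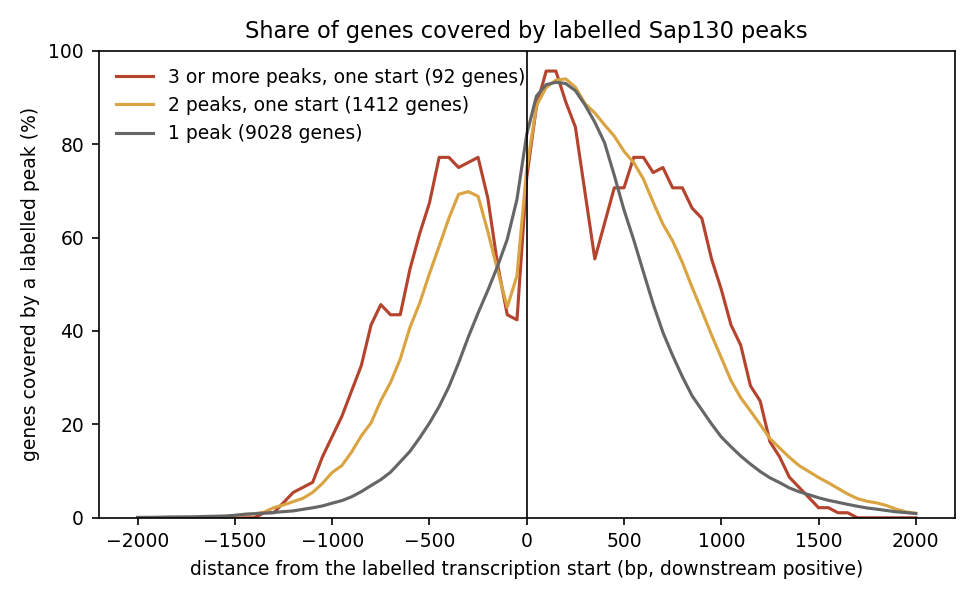
Share of genes (y axis, %) with a labelled peak at each distance in bp from the start (x axis), for the 92 single-start genes with 3 or more peaks, the 1412 genes with 2 peaks around a single start and the 9028 genes with 1 peak. The first set has dips at -50 bp (42.4%) and between 300 and 400 bp, the second shows the upstream dip alone, and 1-peak genes show a single hump.

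Sap130, the gene of the precipitated protein itself, was among the single-start genes. Its peaks on chromosome 18 were 444, 546 and 525 bp wide, centred at -397, 218 and 947.5 bp from the start at 31634383. The middle peak, over the start, stood at place 1270 of the list, the downstream one at 4809 and the upstream one at 11717. Place is the running number of a peak in the authors' list, with 1 first. What quantity ordered the list is not stated.

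The chromatin genes Ino80 and Kat2b had a like layout. Ino80, the ATPase of a nucleosome remodelling complex, had peaks of 343, 486 and 766 bp at places 7863, 5552 and 9, the last inside intron 1 and the earliest of all 510. Kat2b, a histone acetyltransferase, had peaks of 238, 491 and 1391 bp at places 15769, 7520 and 6626. In both genes the widest and earliest peak was the one downstream of the start.

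U2af2, the large subunit of a splicing factor that recognises the end of introns, had 2 peaks upstream, of 584 and 352 bp, and another of 1250 bp centred at 669 bp. That wide peak stood at place 211 and the upstream ones at 10477 and 8522. The start at chromosome 7 position 5062143 lay in the gap before the widest peak. Rfx3, a regulator of cilia genes, repeated this form, with upstream peaks of 239 and 327 bp and one of 1400 bp at place 1070 downstream.

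Dlx1 stood later in the list. It had peaks of 244, 629 and 225 bp at places 14809, 13174 and 15949, with the widest over the start. Unc5a, a netrin receptor of growing axons, had peaks of 488, 612 and 243 bp, and the middle one stood at place 4838, with the others at 14211 and 14835.

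Among the longest of the 164 genes were Dpp6, Pcdh9, Camta1 and Rora. Pcdh9 and Dpp6 were multi-start genes, while Camta1 and Rora had a single start. Camta1, a calmodulin-binding transcription factor, had peaks of 867, 243 and 481 bp around a start that none of them covered, and Rora, a nuclear receptor needed in the cerebellum, had its peaks of 291, 307 and 796 bp on either side of an uncovered start.

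The shortest genes were the histone H3 genes H3c11 (483 bp), H3c10 (488 bp) and H3c4 (504 bp), all on chromosome 13. Each had a narrow middle peak over the start, of 217, 232 and 217 bp, a peak upstream and a peak centred beyond the end of the gene. These genes have near-identical copies, so how reads were divided among them is uncertain. H2az1, the histone variant H2A.Z (2436 bp long), had peaks of 467, 412 and 706 bp at places 6111, 2437 and 5364, all within the first 8115. Swsap1, a recombination factor gene of 2518 bp, had peaks of 394, 277 and 271 bp.

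The 5 tightest clusters spanned little more than 1 kb. Lipg, endothelial lipase, spanned 1019 bp, and Dctn4, a dynactin subunit, 1040 bp. Onecut2, a homeobox factor, spanned 1092 bp, and Crtac1 and Vstm2b 1096 and 1100 bp. Over all single-start genes the median span was 1704 bp, with a highest value of 2616 bp in Tnpo2, a nuclear import receptor. Of the 1-peak genes, 805 (8.92%) had a single unbroken peak at least as wide as that median.

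Timm21 and Tnpo2 were the 2 single-start genes with 4 peaks. Timm21, a part of the mitochondrial import machinery, had widths of 221, 374, 417 and 307 bp, with 2 peaks on each side of the start. Tnpo2 had widths of 225, 347, 668 and 963 bp, growing along the gene. Wac, an adaptor protein with a WW domain, had starts 339 bp apart and peaks of 747, 405 and 753 bp at places 6908, 9900 and 6325. Pantr1, a long non-coding RNA transcribed beside Pou3f3, had peaks of 505, 440 and 959 bp at places 7030, 5677 and 7142, while those of Gm10649, the other non-coding gene, stood at 15757, 15112 and 14552.

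In the multi-start genes the peaks were divided among starts that lay a median of 9913 bp apart (range 539 to 406891). The spread exceeded 1000 bp in 66 of the 72, 10000 bp in 36, 50000 bp in 20 and 100000 bp in 7. In 38 genes every group of starts had a start inside a labelled peak. In 64 genes at least 1 group of starts held 2 or more peaks. A gene with more labelled peaks than groups of starts must have such a group, so this count is not independent of the rule.

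The commonest division was 2 peaks at a start and 1 at another, in 49 genes. A single peak at each of 3 starts was found in 8: Dhx30, Dmtn, Dpp6, Frmd4a, Gse1, Kdm2b, Oxr1 and Pde4dip. Another 8 had 2 peaks at each of 2 starts: Mcf2l, Myt1l, Pou2f1, Ppp2r5c, Rnf44, Schip1, Sertad2 and Zfp516. Bcar1, Nav2 and Phf21a had 3 peaks at one start and 1 at another, and Runx1t1, Satb1 and Trim2 had 2, 1 and 1 over 3 starts.

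Tgif1 had 5 peaks at 4 starts spread over 3742 bp of chr17:70849243-70853480. In order along the gene the peaks were 1115, 635, 937, 314 and 392 bp wide, at places 10790, 8257, 8143, 14537 and 15897. The second and the fourth covered a start, and the others were centred inside intron 1 of their own transcript. All 5 stood in the later part of the list.

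**Figure D3:**
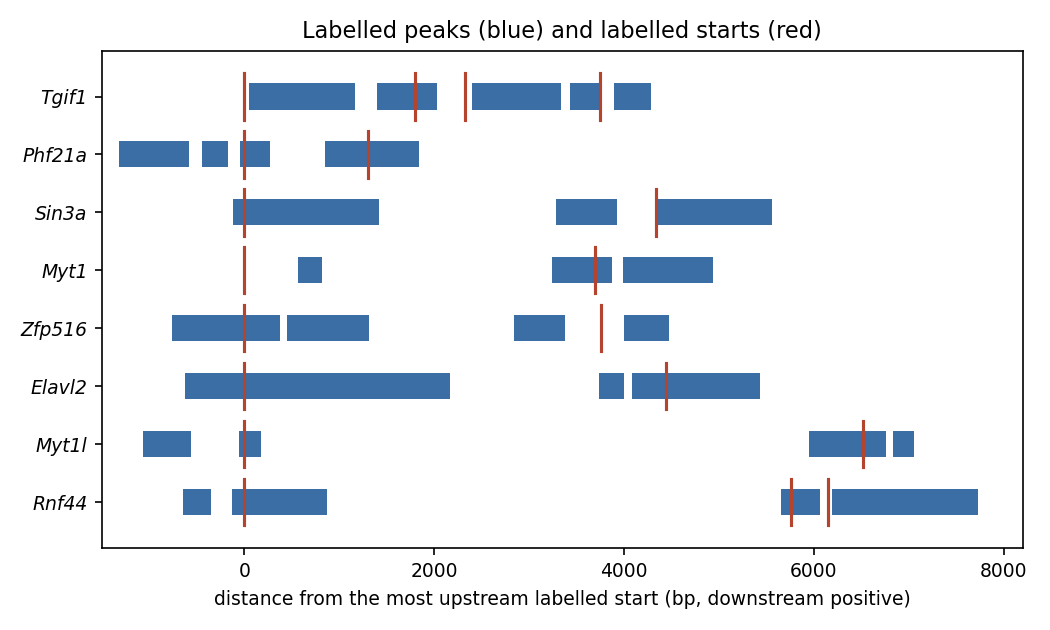
Labelled peaks (blue bars) and labelled transcription starts (red ticks) of 8 multi-start genes whose peaks fit within about 10 kb, 1 gene per row. The x axis is the distance in bp from the most upstream labelled start. Tgif1 shows 5 peaks over 4 starts, Phf21a 3 peaks around the upstream start and 1 at the other, and Zfp516 and Myt1l 2 peaks at each of 2 starts.

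Sin3a had a peak of 1541 bp over its upstream start at place 3468 and a peak of 1212 bp just past its downstream start at place 850. Another, of 644 bp at place 12999, was centred at -733 bp from the downstream start. The starts lay 4336 bp apart. The wide peaks were thus centred in intron 1 of each transcript, and the narrow one lay between the starts.

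Phf21a, a subunit of the LSD1-CoREST corepressor, had peaks of 737, 272 and 309 bp around its upstream start and one of 991 bp over a start 1301 bp further on. Kdm2b, a histone demethylase that binds unmethylated CpG, had a peak over each of 3 starts, of 503, 1368 and 1815 bp at places 8755, 1595 and 909. The widest lay 88742 bp from the most upstream start. Gatad2a, a subunit of the NuRD deacetylase complex, had peaks of 455, 775 and 1524 bp, the last at place 149.

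Among neural transcription factors, Pou2f1 had the earliest peak of a multi-start gene, 790 bp wide at place 39 and centred at -694 bp. Its other upstream-promoter peak was 1511 bp wide at place 3316. The peaks of the promoter 67686 bp further on, of 786 and 493 bp, stood at 14384 and 14917. The 2 promoters of this gene thus stood far apart in the list as well as on the chromosome.

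Myt1 and Myt1l, related zinc finger factors of neuronal differentiation, were both multi-start genes. Myt1 had peaks of 254, 637 and 956 bp at places 12907, 13989 and 13742, over starts 3697 bp apart. Myt1l had peaks of 507, 229, 804 and 217 bp at places 13559, 16023, 9148 and 16024, over starts 6521 bp apart. Apart from the widest peak of Myt1l, they stood late in the list.

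Satb1 had a peak of 332 bp past its CG-poor upstream start and one of 518 bp over the middle start with 45 CG. At the downstream start, 21236 bp from the first, it had peaks of 1110 and 761 bp. The widest, at place 5733, was also the earliest of the gene. Foxp2, a forkhead factor linked to speech in human, had a peak of 1010 bp over its upstream start and peaks of 267 and 439 bp at a start 284157 bp away.

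The largest distances were in Frmd4a, Oxr1 and Dpp6, whose peaks spanned 406759, 384267 and 357536 bp. Frmd4a, a scaffold protein with a FERM domain, had peaks of 443, 1733 and 460 bp. Oxr1, which protects neurons from oxidative stress, had 311, 587 and 436 bp. Dpp6, an auxiliary subunit of voltage-gated potassium channels, had 372, 241 and 247 bp. Nav2, a neuron navigator that binds microtubules, followed with 287761 bp: a peak of 707 bp at one end, and peaks of 391, 406 and 217 bp at the other.

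The largest summed widths also belonged to multi-start genes. Gse1 had the widest of the 510 peaks, 3581 bp at place 1232, and summed to 5472 bp. Elavl2, a neuronal RNA-binding protein, summed to 4410 bp with peaks of 2793, 270 and 1347 bp. Trim2, a ubiquitin ligase of axons, summed to 4117 bp over 4 peaks. Spag9, a scaffold of JNK signalling and motor proteins, summed to 3740 bp, and Mllt10, a cofactor of the methyltransferase Dot1l, to 3698 bp. Dhx30, an RNA helicase, had the wide peak of 1609 bp at place 155, beside 2 of 391 and 380 bp.

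Just outside the rule stood genes with 2 labelled peaks and as much covered sequence. Ubtf, a factor of ribosomal RNA transcription, summed to 4394 bp with peaks of 1498 and 2896 bp. Lmo4 summed to 3996 bp, Set to 3980 bp, Mir9-3hg to 3916 bp and Zbtb18 to 3803 bp. Set, a histone chaperone, had a peak of 2550 bp at place 28. Among the 164 genes only Gse1, Elavl2 and Trim2 summed to more than Zbtb18, so the count of peaks and the covered length ranked genes differently.

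Short gaps parted most of the neighbouring peaks of the 164 genes. Of their 346 gaps, 198 (57.2%) were under 200 bp, with a median of 167 bp and a range of 50 to 341468 bp. In single-start genes the median was 137 bp, and in multi-start genes 305.5 bp. The 2-peak genes had a median of 149 bp, with 67.0% under 200 bp. That share was 72.6% in single-start genes and 72.0% in 2-peak genes around a single start. In the whole list 2370 of 16210 neighbouring pairs (14.6%) were under 200 bp apart, and the median was 35831 bp. Peaks labelled with the same start are centred within about 1 kb of it. The contrast with the whole list is thus not independent of the labelling. No gap in the list was below 50 bp and no peak below 217 bp, so closer or narrower pieces are not in it. With peaks under 200 bp apart merged, 38 of the 164 genes would still have 3 or more, and with those under 500 bp apart merged, 10.

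The peaks were narrower and later in the list than those of other labelled genes. Their median width was 466 bp (quartiles 308 and 754.5), against 534 bp in 2-peak genes and 849 bp in 1-peak genes. Single-start genes had a median of 378 bp and multi-start genes 583 bp. The median place was 10516, against 9317.5 and 6029.5, and 179 of 510 peaks (35.1%) stood among the first 8115, against 42.7% and 65.7%. Peaks of 2000 bp or more made up 0.980%, against 1.44% and 4.57%. A gene that is cut into more pieces has narrower pieces, so none of these values is independent of the rule.

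Per gene, more sequence was covered. The median summed width was 1687.5 bp, against 1239 bp in 2-peak genes and 849 bp in 1-peak genes. A sum over more peaks is not independent of the rule. Single-start genes had a median of 1359.5 bp, against 1206 bp in 2-peak genes around a single start. Multi-start genes had 2302.5 bp, against 1723 bp in 2-peak genes with several starts. The earliest peak of a gene had a median place of 6041.5, against 5439 in 2-peak genes and 6029.5 in 1-peak genes. Within single-start genes with 3 peaks, the last peak along the gene was the widest in 44, the middle one in 29 and the first in 17. The middle peak was the earliest in the list in 45, the last in 29 and the first in 16. The widest peak was also the earliest in 65 of 90. Over the 510 peaks, which are not independent of each other, width and place had a Spearman rho of -0.66.

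The peaks lay upstream of the start or in intron 1 for the most part. Of the 510 centres 204 (40.0%) were upstream, against 42.2% in 2-peak genes and 14.9% in 1-peak genes, and 182 (35.7%) were in intron 1. In 155 of the 164 genes (94.5%) at least 1 peak was centred upstream and at least 1 downstream, against 79.0% of 2-peak genes. The side was taken from each peak's own labelled start, which need not be the same start. More peaks per gene make both sides likelier, so this contrast is not independent of the rule. At least 1 labelled start lay inside a peak in 136 genes (82.9%), against 77.1% and 81.9%. Multi-start genes, with more starts to count, were at 95.8%. Single-start genes were at 72.8%, against 75.4% of 2-peak genes around a single start.

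More annotated starts went with more labelled peaks. Over all labelled genes 1.53% had 3 or more peaks. The reference promoter table held no start for 38 of the 164 genes and 2145 of all labelled genes. Without those genes, 52 of 6872 labelled genes with 1 start in it (0.757%) had 3 or more peaks. The share was 40 of 1283 (3.12%) with 2 starts, 21 of 309 (6.80%) with 3, and 13 of 140 (9.29%, exact 95% interval 5.04 to 15.4) with 4 or more. Of the 52 genes with 1 such start, 49 were single-start genes by their peaks too. The intervals cover counting error only, here and below.

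**Figure D4:**
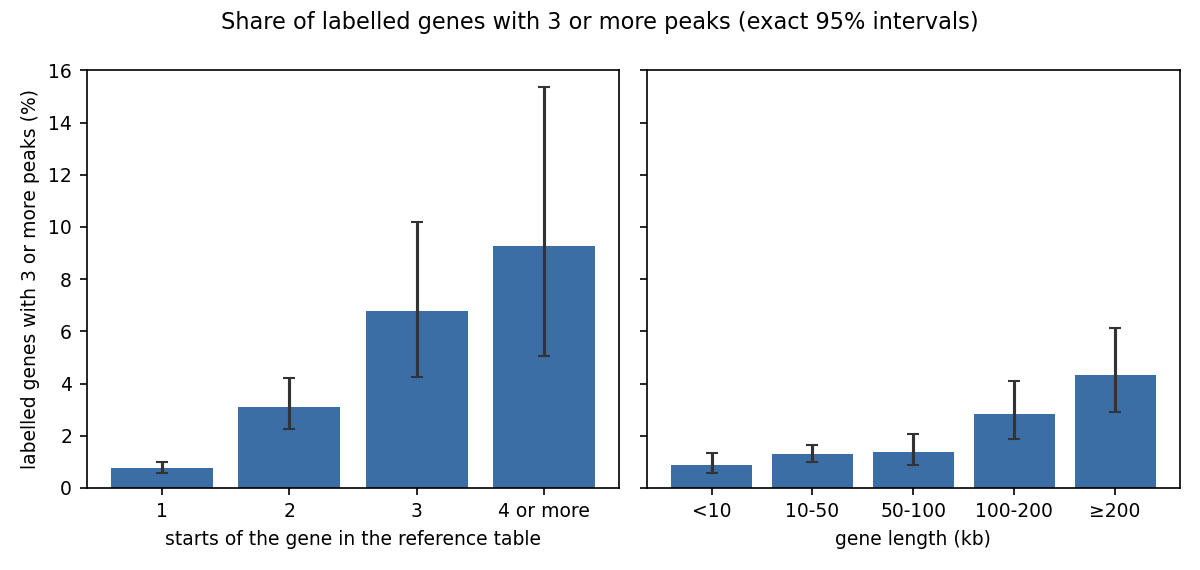
Share of labelled genes with 3 or more labelled peaks (y axis, %), by the number of starts of the gene in the reference table (left) and by gene length in kb (right). The left panel leaves out genes with no start in that table, 38 of the 164 among them. Bars are shares and lines exact 95% binomial intervals; the share was 0.757% for 1 start and 9.29% for 4 or more, and 0.884% below 10 kb and 4.31% at 200 kb or more.

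The genes were also long as a set. Their median length was 46857.5 bp, against 33228 bp in 2-peak genes, 23983.5 bp in 1-peak genes and 17821 bp in all protein-coding genes. Multi-start genes had a median of 97665.5 bp, against 58607 bp in 2-peak genes with several starts. Single-start genes had a median of 29939 bp, below the 31331.5 bp of 2-peak genes around a single start. Of labelled genes under 10 kb, 23 of 2603 (0.884%) had 3 or more peaks, and of those of 200 kb or more 29 of 673 (4.31%). That share was 1.53% over all labelled genes. Whether length and number of annotated starts move together, and their parts in this, were not tested.

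Set against 13 lists of genes for this tissue and complex, neural transcription factors had the highest share with 3 or more peaks. The exact 95% intervals of the lists overlapped. That of cytosolic ribosomal protein genes, for which the limit of 3 counts is given below, reached 4.80%. These lists and the 164 genes were chosen with earlier results of these data known, so their counts are not independent evidence. Of 101 neural transcription factors, 83 had a labelled peak and 9 (8.91%, exact 95% interval 4.16 to 16.2) had 3 or more, among them Dlx1, Foxp2, Myt1, Myt1l, Pou2f1, Rfx3, Satb1 and Tgif1. Over all protein-coding genes the share with 3 or more was 0.783%, and 49.2% had at least 1 labelled peak. Of these 9, 6 were multi-start genes.

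The Sin3-HDAC complex came close behind, also beside 0.783% over all protein-coding genes, with 2 of 24 subunits and partners (8.33%, exact 95% interval 1.03 to 27.0), Sap130 and Sin3a, while 6 others had 2 peaks, 11 had 1 and 5 had none. Of 81 chromatin regulators, 4 (4.94%) had 3 or more: Ino80, Kat2b, Kdm2b and Phf21a. Of 67 autism-associated genes 4 (5.97%) did, among them Myt1l, Phf21a and Wac. Of 52 genes of splicing and RNA binding 2 (3.85%) did, Elavl2 and U2af2. The lists of TGF-beta, BMP and activin signalling (Tgif1), axon guidance (Unc5a) and congenital heart disease genes (Sap130) had 1 each, as did that of neuronal markers, which came to 2.17 to 3.57% of a list. Over all lists, 20 different genes had 3 or more peaks. Counted from the first 8115 places alone, Ino80 was the 1 list gene left, and with peaks under 500 bp apart merged it was Myt1l.

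Lists with 0 genes of 3 or more peaks are given next, beside the background share of 0.783%, at which a list of this size would hold under 1 such gene. Of 50 cell cycle and replication genes 46 had a labelled peak and 41 exactly 1, but 0 had 3 or more, which allows a share of up to 6%. Of 75 cytosolic ribosomal protein genes 65 had a peak and 57 exactly 1, and again 0 had 3 or more (up to 4%). Of 43 genes of Notch, Wnt and hedgehog signalling 37 had a peak and 0 had 3 or more (up to 6.98%). Of 20 blood and immune marker genes none had any labelled peak, a count of 0 that allows up to 15%. Over all protein-coding genes 49.2% had at least 1 labelled peak.

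**Figure D5:**
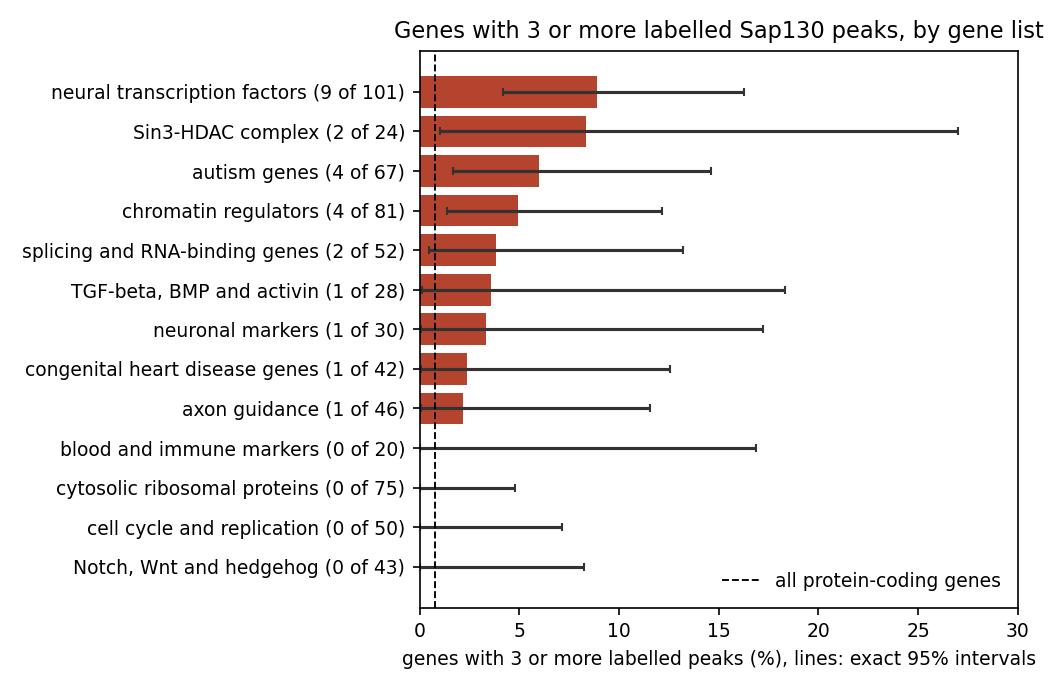
Share of the genes of each list with 3 or more labelled peaks (x axis, %), with the count and the list size beside each name. Bars are shares, lines exact 95% binomial intervals and the dashed line the 0.783% of all protein-coding genes; neural transcription factors stand at 8.91% and 4 lists at 0.

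Promoter sequence was read for the 176 labelled starts of these genes, of 256, that lay within 100 bp of a reference start. Their median GC content was 64.2%, against 65.7% at 2-peak and 62.3% at 1-peak genes and 52.7% over all 32851 promoter windows. The ratio of observed to expected CpG had a median of 0.782, against 0.829, 0.810 and 0.384. These medians lay nearer to those of other genes with a labelled peak than to that of all promoters. The ratio exceeded 0.6 in 91.5% of windows of single-start genes and 68.4% of those of multi-start genes, against 85.5% at 2-peak and 83.8% at 1-peak genes.

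Short motifs were counted on both strands of the same windows. GGGCGG, the core of the Sp1 box, stood in 125 of 176 (71.0%), against 79.2% at 2-peak genes, 70.6% at 1-peak genes and 35.7% of all promoter windows. CCAAT stood in 81 (46.0%), against 45.8%, 38.2% and 37.4%. CCGGAA, the core of the ETS site, stood in 37 (21.0%), against 22.8%, 31.9% and 14.9%, and the E-box CACGTG in 14 (7.95%), against 10.1%, 11.3% and 7.15%. The TATA box letters TATAAA stood in 8 (4.55%), against 5.62%, 5.76% and 13.6%. By arrangement these were 7 of 59 windows of single-start genes (11.9%) and 1 of 117 of multi-start genes (0.855%), and the 3 histone H3 genes were among the 7.

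Peaks without a gene label also lay inside 42 of the 164 genes (25.6%), against 16.7% of 2-peak and 9.58% of 1-peak genes. Per 100 kb of gene the numbers were 0.390, 0.353 and 0.234. Camta1 had 6, Myt1l and Pantr1 5 each, and Apc2, a neuronal relative of the tumour suppressor Apc, 4. From 2 kb before the first labelled peak to 2 kb after the last, 38 genes (23.2%) had an unlabelled peak, against 14.4% and 7.54%. This stretch lengthens with the span of the peaks, so the sets were not compared over equal lengths. Among single-start genes it was 18.5%, against 13.2% of 2-peak genes around a single start. A labelled peak of another gene lay in the same stretch in 9 of the 164 genes (5.49%), against 5.20% and 9.49%.

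The genes were spread over all autosomes and X. Over all labelled genes the share with 3 or more peaks was 1.53%. Chromosome 18 had the highest share of its labelled genes, 12 of 269 (4.46%, exact 95% interval 2.33 to 7.66), and chromosome 16 the lowest, 2 of 346 (0.578%). Both were picked as the extremes, which the interval does not allow for. The 12 were Dctn4, Kctd1, Lipg, Nol4, Onecut2, Sall3, Sap130, Timm21, Trim36, Wac, Zfp236 and Zfp516. Chromosome X had 7 of 354 (1.98%).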

How the data were processed

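Bowtie 1.1.2, MACS2 2.1.0.20140616 and the genome build GRCm38 (mm10) are named, per the submitters' processing notes. Alignment settings, peak threshold, duplicate handling and filters were "not given in the sources used here". For both libraries together, the authors deposited a single peak list. Per the file headers it gives a running number and the chromosome, start and end of each peak, and no score. A gene symbol with a transcript model follows on 12656 of 16231 peaks. The list has no height, fold, p-value or read total.

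The genes were those whose symbol stood on 3 or more peaks. The genes and the lists were chosen with earlier results of these data known. Symbols that stood as calendar dates, on 27 peaks, were counted as they stood, and the only such gene of the 164, Marchf9, was named by its transcript accession. Peak bounds are printed as deposited. Transcript bounds count from 0 and were raised by 1 base, after which 3317 of 5562 plus-strand and 3223 of 5488 minus-strand starts fell on a RefSeq start of GRCm38.p6. Of the 510 peaks, 502 matched a RefSeq gene by accession and 8 by symbol. Starts under 500 bp apart were grouped as 1.

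No test was run, because the peak count chose the genes and no group has more than 1 library. Shares carry exact Clopper-Pearson 95% intervals, and a count of 0 the limit of 3 counts, both for counting error only. The genes named were those with 4 or more peaks, Sap130, list members, non-coding genes, and the 5 most extreme by place, summed width, span and gene length. Apc2, the other genes of a division of starts, those of chromosome 18, Btbd8, Bcor and Marchf9 were named after their values were seen. Some genes that this rule covers are not reported here. The measuring of gaps, the merging of close peaks and the grouping of starts were tested on simulated data and recovered 200 of 200 genes. The counting of peaks per symbol was not part of that test. Software was Python 3.11.15, numpy 2.4.6, pandas 2.3.3, scipy 1.17.1 and matplotlib 3.10.9.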

Additional observations from a re-analysis of the deposited data

How the results depend on the processing

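The count of 164 genes depended on how the list was cut. It was 26 with centres within 500 bp of the start only, 38 with peaks under 200 bp apart merged and 10 with those under 500 bp apart merged. It was 15 from the first 8115 places, 81 from peaks of 300 bp or more and 17 with 4 or more peaks required. All genes left under these settings were among the 164. The 10 left after the wider merge were Dpp6, Frmd4a, Myt1l, Oxr1, Pde4dip, Runx1t1, Sertad2, Trim2, Zfp219 and Zfp516. The 20 list genes became 1 from the first 8115 places (Ino80) and 1 after the wider merge (Myt1l). Measured between centres, the median distance was 701 bp in place of a gap of 167 bp. Under settings chosen after seeing the data, the median width was 738 bp in the first 8115 places, and unlabelled peaks from those places lay inside 10 genes in place of 42. Fewer or merged peaks enter each of these counts by construction. The count was 157 without X and 166 by RefSeq gene, and 75 or 61 genes were multi-start with starts 100 or 2000 bp apart, against 72. No paired analysis was possible because each arm holds 1 library. Depth is unknown, so whether a gap holds no signal or signal below the authors' threshold was not tested.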
